A study of Mus musculus with 6 samples.

Results

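Hearts of mice given dabigatran were compared with hearts of untreated mice, gene by gene, in 4 of the 6 libraries of the series. Dabigatran replicates 10 and 12 stood against untreated replicates 8 and 9. Of 16229 listed genes, the 12981 with a mean level of at least 0 over the 6 libraries were tested. Level here means log2 CPM, the log2 of read counts relative to library size, after the authors' scaling between libraries.

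All mice were wild-type C57BL/6 males aged 8 to 10 weeks, and the tissue taken was described as infarct plus its surroundings. The treated mice received dabigatran, which blocks thrombin (coagulation factor IIa), at 10 mg/kg for 7 days. The other treated group, used below for a direct comparison, received rivaroxaban, a factor Xa blocker, at 3 mg/kg for 7 days. The untreated mice have no agent in their labels, and the labels do not say whether each library is a separate mouse or whether the untreated mice were operated on, so the p-values measure the spread between these libraries, which may be technical.

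Thrombin cuts fibrinogen to make clots, and it also signals to vessel wall, fibroblasts and platelets by cutting protease-activated receptors. NR4A receptors, SIK1, AP-1 and KLF factors are induced quickly by cAMP, calcium, flow or growth factor signals. Glucocorticoids act more broadly through a nuclear receptor, whose usual targets in heart include Sgk1, Per1, Tsc22d3 and Zbtb16.

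The libraries read mainly as ventricle. Myh6, the main adult mouse myosin heavy chain, lay between 15.18 and 15.25 in all 6 libraries, and the light chain gene Myl2 between 13.26 and 13.40. Of the atrial genes, the light chain gene Myl7 lay between -0.52 and 1.21, Myl4 between 2.70 and 3.02 and Nppa between 6.08 and 6.81. Some defining genes of inflammatory infiltrate were low, the lowest value of every library being -4.04. S100a8, a neutrophil gene, lay between -1.43 and -0.72, the cytokine gene Il1b between -1.63 and -0.46 and osteopontin, Spp1, between -1.70 and -0.53. Another neutrophil gene, Csf3r, lay between 0.68 and 1.26. The macrophage genes Csf1r, Adgre1 and Cd68 were higher, at 6.23 to 6.42, 4.17 to 4.47 and 3.70 to 4.13. The libraries held 27176892 to 43798222 reads in listed genes, fewest in dabigatran replicate 10 and most in dabigatran replicate 12. On the first principal component, with 39.1% of the variance, the untreated libraries scored 17.4 and 13.4. Dabigatran replicates 10 and 12 scored -10.6 and -4.81 there, and rivaroxaban replicates 14 and 15 -4.15 and -11.2. The dabigatran pair differed most on the second principal component, which carried 21.0% of the variance (scores 14.6 and 1.61), while the untreated pair scored 1.07 and 1.42.

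Dabigatran hearts differed from untreated hearts mainly by genes that were higher. In limma's test 244 genes passed an adjusted p of 0.05, which is 1.88% of those tested. Of these, 179 (1.38%) were higher and 65 (0.501%) were lower with dabigatran. These shares are the background for the counts of each gene list below. The differences were mostly small: the median was 0.60 among the higher genes and -0.49 among the lower ones, 29 genes changed by at least 1 (25 up, 4 down), and 95 changed by less than 0.5. All 244 had no overlap between the 2 and 2 libraries, but so did 43.6% of all tested genes (5666), and lack of overlap was not used as a call. When the spread was not allowed to vary with expression level, no gene passed (lowest adjusted p = 0.113), although 1728 had an unadjusted p under 0.05, against 1904 with it.

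The count also moved with single libraries. It was 98 without dabigatran replicate 10, 270 without dabigatran replicate 12, 73 without untreated replicate 8 and 150 without untreated replicate 9. Without either rivaroxaban replicate, which enters only the estimate of spread, it was 175. In all, 41 genes kept their call whichever of the 6 libraries was left out, 38 of them higher and 3 lower. With a robust prior, which lets genes of unusual spread keep their own variance, 226 genes passed, and 189 of them were among the 244. It ended 28 of the 105 named calls, some of them calls that had survived leaving out any library. Apart from the fit with no trend, 23 of the 105 kept their call in every fit run. The 38 include Nr4a3, Nr4a1, Sik1, Atf3, Ddit4, Errfi1, Sgk1, Tob2, Fosl2, Klf2, Klf4, Kcna5 and S1pr1. The 3 lower genes were Bhlhe41, a repressor in the clock, Mlf1, and Fgf16, a heart growth factor that was named after its values were seen.

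**Figure D1:**
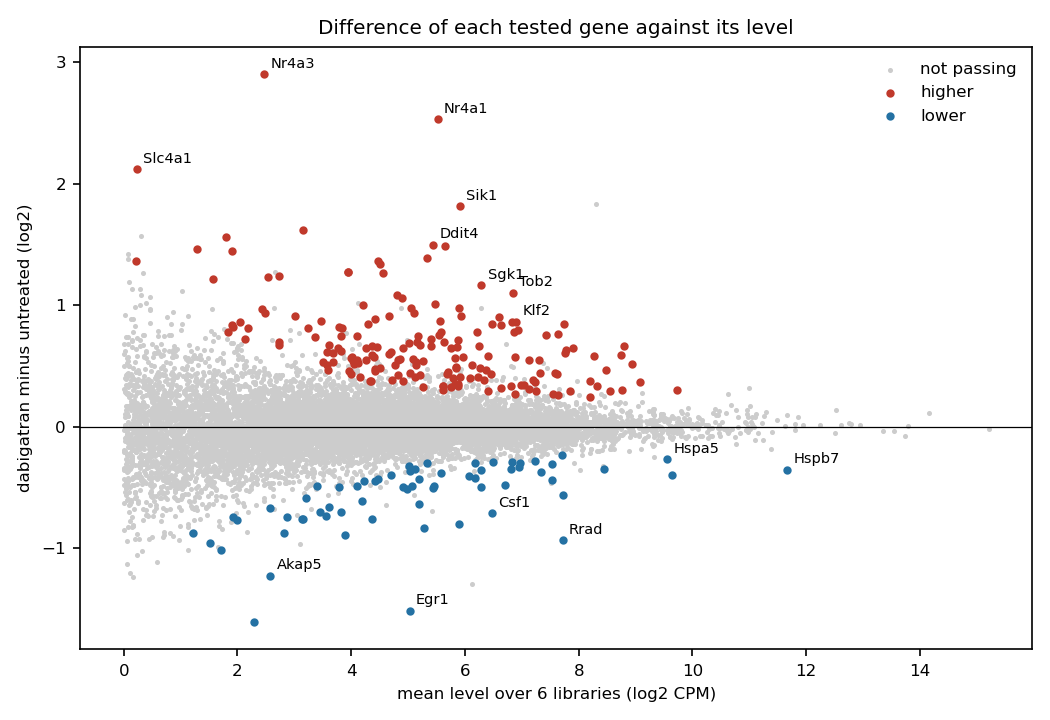
Each point is a tested gene, with its mean level over 6 libraries (log2 CPM) across and the difference between dabigatran and untreated hearts (log2) upward. Red points passed as higher (179), blue as lower (65) and grey did not pass; Nr4a3 lies highest at 2.90, and Egr1 is the lowest labelled point at -1.51.

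Nr4a3 and Nr4a1, orphan nuclear receptors, had the largest rises, and the kinase Sik1 also rose. Nr4a3 (chr4:48045153-48086447 on GRCm38), a receptor gene induced by many stimuli, stood at 0.86 and 1.11 in the untreated libraries and at 4.54 and 3.23 in dabigatran replicates 10 and 12. This is a difference of 2.90 ± 0.31 (SE), 7.46-fold, with a limma adjusted p of 0.0013. Both dabigatran libraries were far above both untreated ones, and replicate 10 was the higher. Nr4a1 (chr15:101254269-101274795) went the same way, from 3.85 and 4.44 to 7.19 and 6.16, a rise of 2.53 ± 0.27 (limma adjusted p = 0.00119). Sik1, a salt-inducible kinase that restrains CREB coactivators, had 4.58 and 4.88 in untreated and 6.86 and 6.22 in treated hearts, a rise of 1.81 ± 0.19 (limma adjusted p = 0.00109). All 3 kept their calls whichever library was left out, but none passed with a robust prior, where the adjusted p were 0.0927 for Nr4a3, 0.171 for Nr4a1 and 0.146 for Sik1.

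The third NR4A gene did not pass. Nr4a2 had 1.16 and 1.32 in untreated and 2.06 and 1.90 in treated libraries (0.74, limma adjusted p = 0.0562). Among 21 tested genes of NR4A and cAMP/CREB signalling, 5 rose (Sik1, Nr4a1, Nr4a3, Per1 and Irs2), none fell and 16 did not pass. Creb1, the transcription factor itself, differed by 0.12, and its coactivator genes Crtc1, Crtc2 and Crtc3 by between -0.08 and 0.15. The median of the 21 was 0.23, against 0.0026 over all tested genes. Irs2 did not pass without dabigatran replicate 10 or untreated replicate 8 (adjusted p from 0.0789 to 0.0811).

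Glucocorticoid targets formed the list with the largest share of calls. Of 23 tested, 14 rose, none fell and 9 did not pass, and the median difference was 0.79. Over all tested genes 1.38% rose and the median was 0.0026. Sgk1 (chr10:21882184-21999903), a kinase that acts on ion channels, had 5.58 and 5.44 in untreated hearts and 6.56 and 6.79 in treated ones, a rise of 1.17 ± 0.08 (limma adjusted p = 0.00012). Errfi1, a brake on EGF receptor signalling, had 4.60 and 4.34, then 5.90 and 5.81, a rise of 1.39 ± 0.09 (limma adjusted p = 0.00012). Ddit4, an inhibitor of mTORC1 also named REDD1, rose from 4.59 and 4.45 to 6.26 and 5.77 (limma adjusted p = 0.000333). Per1, a clock gene, rose by 0.86 ± 0.11 (limma adjusted p = 0.00409).

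Zbtb16, a zinc finger repressor, was among the largest rises of the list but one of its least even. It stood at 4.48 and 4.39 in untreated hearts, at 6.49 in dabigatran replicate 10 and at 5.37 in replicate 12 (1.49 ± 0.27, limma adjusted p = 0.0246), and it did not pass without untreated replicate 8 or 9 (adjusted p = 0.117 and 0.0942). Without dabigatran replicate 10 its difference was 0.93. Of the 14, 6 kept their call whichever library was left out: Sgk1, Errfi1, Ddit4, Per1, Tsc22d3 and Cdkn1a. With a robust prior Per1 and Tsc22d3 did not pass (limma adjusted p = 0.0658 and 0.0534), nor did Zbtb16, Arrdc2 and Mt2 (0.346, 0.2203 and 0.2015). Pdk4, which restrains pyruvate use, had the largest difference of all 23 but did not pass (7.82 and 6.47 against 8.49 and 9.46, limma adjusted p = 0.0993), and neither did Fkbp5 (limma adjusted p = 0.113). The receptor gene Nr3c1 had 6.55 and 6.52 in untreated and 6.34 and 6.38 in treated hearts, which did not pass (limma adjusted p = 0.151).

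The promoters of 5 genes that rose are given, chosen after their motif matches were seen, to show the response elements they hold: 250 bases before to 50 after the RefSeq start, on GRCm38.p6, read in the gene's direction. They belong to Nr4a1 at chr15:101266596-101266895 on the plus strand, Irs2 at chr8:11008880-11009179 on the minus strand, Errfi1 at chr4:150854820-150855119 on the plus strand, Hspa1b at chr17:34959189-34959488 on the minus strand and Tnfrsf25 at chr4:152115684-152115983 on the plus strand. Capitals mark the matches to a motif.
Nr4a1: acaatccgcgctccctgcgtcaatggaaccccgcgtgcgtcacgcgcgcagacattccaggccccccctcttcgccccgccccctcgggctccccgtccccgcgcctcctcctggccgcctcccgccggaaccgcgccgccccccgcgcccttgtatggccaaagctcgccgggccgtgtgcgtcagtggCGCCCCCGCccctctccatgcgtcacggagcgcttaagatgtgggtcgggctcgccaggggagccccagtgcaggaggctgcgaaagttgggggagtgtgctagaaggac
Irs2: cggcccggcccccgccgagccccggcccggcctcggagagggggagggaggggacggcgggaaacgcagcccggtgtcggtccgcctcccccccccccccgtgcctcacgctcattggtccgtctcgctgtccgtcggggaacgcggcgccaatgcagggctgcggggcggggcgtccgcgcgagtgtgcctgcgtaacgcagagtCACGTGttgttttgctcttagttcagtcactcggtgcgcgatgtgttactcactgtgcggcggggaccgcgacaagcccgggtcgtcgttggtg
Errfi1: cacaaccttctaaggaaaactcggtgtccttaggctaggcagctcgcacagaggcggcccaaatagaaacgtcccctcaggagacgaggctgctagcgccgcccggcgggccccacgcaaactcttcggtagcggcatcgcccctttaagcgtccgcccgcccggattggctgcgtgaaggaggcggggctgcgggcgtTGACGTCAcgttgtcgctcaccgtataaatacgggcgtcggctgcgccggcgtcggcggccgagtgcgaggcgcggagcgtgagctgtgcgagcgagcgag
Hspa1b: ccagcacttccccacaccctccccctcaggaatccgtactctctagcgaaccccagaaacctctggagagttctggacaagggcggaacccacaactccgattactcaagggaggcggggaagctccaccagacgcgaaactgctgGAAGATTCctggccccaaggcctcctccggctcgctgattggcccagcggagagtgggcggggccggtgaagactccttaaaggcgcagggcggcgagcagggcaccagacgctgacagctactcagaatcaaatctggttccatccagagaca
Tnfrsf25: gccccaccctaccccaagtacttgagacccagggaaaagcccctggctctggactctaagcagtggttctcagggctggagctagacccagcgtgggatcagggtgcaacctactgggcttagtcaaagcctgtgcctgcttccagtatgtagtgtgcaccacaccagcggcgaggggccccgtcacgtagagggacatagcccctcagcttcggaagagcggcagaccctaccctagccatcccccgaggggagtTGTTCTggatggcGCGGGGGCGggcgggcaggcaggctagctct

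In Nr4a1 the capitals mark an EGR element on the opposite strand, in Irs2 an E-box and in Errfi1 a cAMP response element. In Hspa1b they mark a heat shock element. In Tnfrsf25 they mark a glucocorticoid receptor half-site on the opposite strand and an EGR element. The motifs searched, on either strand, were CRE TGACGTCA, GRE half-site AGAACA, HSE GAANNTTC, E-box CACGTG, NBRE AAAGGTCA, FOXO TTGTTTAC, AP-1 TGANTCA and EGR GCGGGGGCG. The matches shown do not overlap each other.

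The glucocorticoid half-site was in the promoters of 27 of 132 higher genes that have a promoter sequence, 5 of 49 lower genes (10.2%) and 14.9% of the 9986 tested genes with one. The EGR element was in 11.4% of higher, 4.08% of lower and 6.46% of all promoters, and the CRE in 5.30%, 2.04% and 3.45%. The AP-1 element was in 9.85% of higher, 10.2% of lower and 6.20% of all promoters. In the same order, the E-box had 13.6%, 8.16% and 11.7%, the NBRE 1.5%, 2.04% and 1.17%, and the FOXO element 1.5%, 0% and 1.01%. A gene with several promoters was counted if any of them held the motif. The heat shock element was in 9.85% of the higher, none of 49 lower and 6.88% of all promoters. These shares describe the sequences and were not tested.

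Immediate early genes did not move together. Atf3, a stress-induced bZIP factor, stood at 2.19 and 2.19 in untreated and 4.08 and 3.54 in treated hearts (1.62 ± 0.17, limma adjusted p = 0.00117). Fosl2, an AP-1 subunit, rose by 1.06 ± 0.08 with dabigatran libraries at 5.35 and 5.28 against 4.28 and 4.23 (limma adjusted p = 0.000125). Egr1, a zinc finger factor on chromosome 18, fell by 1.51 ± 0.32 (limma adjusted p = 0.042): it had 5.80 and 6.17 in untreated hearts, 3.87 in dabigatran replicate 10 and 5.08 in replicate 12. Its call was lost without dabigatran replicate 10, where the difference was -0.91 (adjusted p = 0.156), and without untreated replicate 8 or 9 (0.133 and 0.174). With a robust prior its adjusted p was 0.399. Among 21 immediate early genes 4 rose, 1 fell and 16 did not pass. Fos and Fosb also had lower values, with differences of -0.57 and -1.12, but neither passed (limma adjusted p = 0.357 and 0.148).

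Of 12 Krüppel-like factor genes, zinc finger genes of vessel wall and muscle, 4 rose and none fell (1.38% of all tested genes rose). Klf2 (chr8:72319033-72321656), a flow-responsive factor of endothelium, had 6.36 and 6.20 untreated and 7.09 and 7.19 with dabigatran (0.86 ± 0.07, limma adjusted p = 0.000125). Klf4 rose by 0.84 ± 0.07 (limma adjusted p = 0.000333). Klf6 and Klf9 rose by 0.48 and 0.35. Klf6 did not pass without dabigatran replicate 12 or rivaroxaban replicate 14 or 15 or untreated replicate 8 or 9 (adjusted p from 0.0631 to 0.169). Klf9 did not pass without dabigatran replicate 10 or rivaroxaban replicate 14 or 15 or untreated replicate 8 (adjusted p from 0.0589 to 0.225).

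Of 16 genes that shorten mRNA life or slow proliferation, 4 rose and none fell (1.38% of all tested genes rose). Tob2, an antiproliferative adaptor of the deadenylase complex, had 6.06 and 6.14, then 7.27 and 7.14 (1.10 ± 0.09, limma adjusted p = 0.000125). Zfp36, which destabilises AU-rich messages such as those of cytokines, rose by 0.69 ± 0.08 (limma adjusted p = 0.00136), and its relatives Zfp36l1 and Zfp36l2 did not pass (-0.18 and -0.19). Of 21 clock genes, Per1 rose, and Bhlhe41 and Dbp fell. Bhlhe41 had 6.56 and 6.63 untreated and 6.18 and 6.01 treated (-0.50 ± 0.07, limma adjusted p = 0.00555). Dbp, a clock output factor, fell by 0.56 ± 0.11 (limma adjusted p = 0.037). Dbp did not pass without rivaroxaban replicate 14 or 15 or untreated replicate 8 or 9 (adjusted p from 0.0583 to 0.136).

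**Figure D2:**
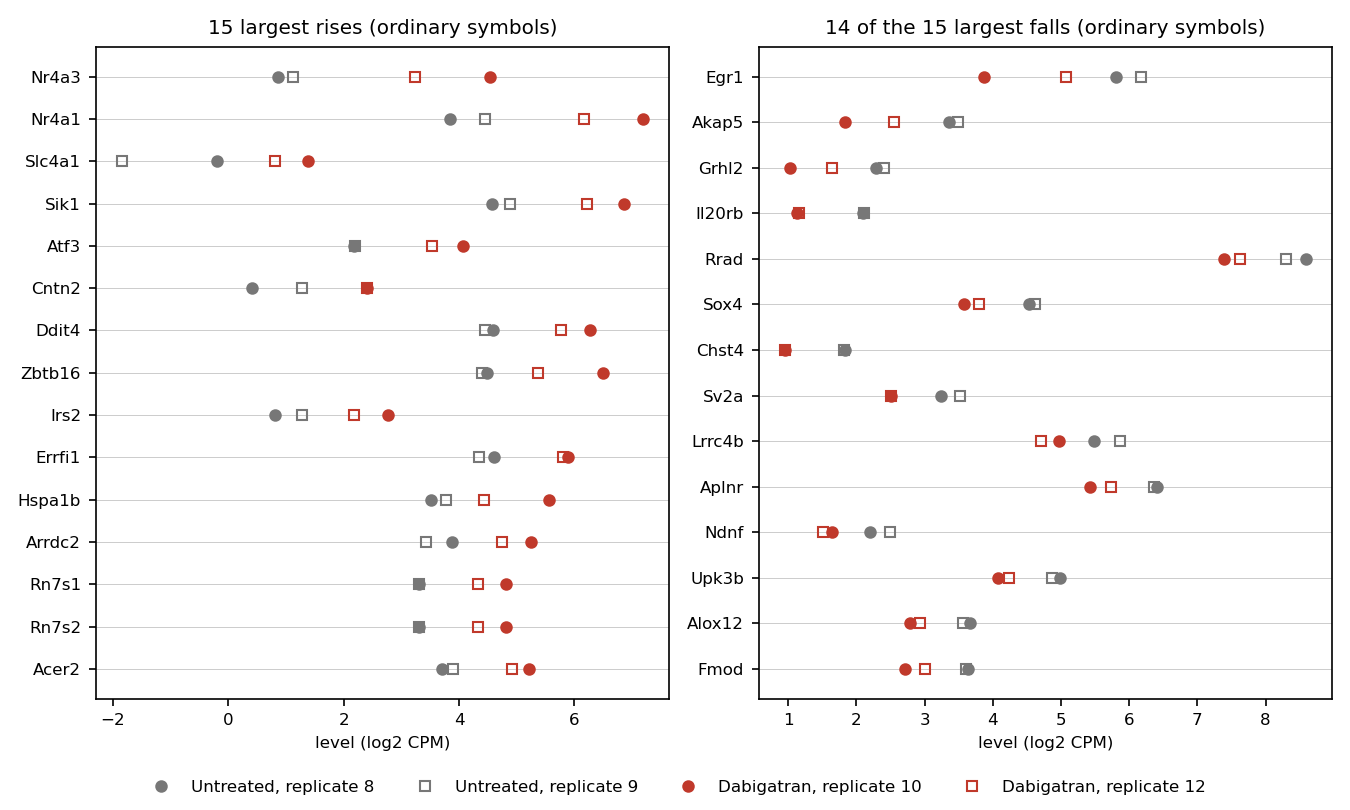
Level (log2 CPM) of the 15 largest rises (left) and 14 of the 15 largest falls (right), among called genes with an ordinary symbol and a mean level of at least 1 in either group, in each untreated (grey) and dabigatran (red) library, with circles for the lower replicate number and squares for the higher. In every row of the left panel dabigatran replicate 10 lies farther from the untreated libraries than replicate 12, though for Cntn2 the 2 values are 2.40 and 2.40.

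The plot of named genes shows that replicates 10 and 12 moved by unequal amounts. Among the 179 higher genes, 127 (70.9%) were higher in replicate 10 than in replicate 12, against 49.7% of all tested genes. Among the 65 lower genes, 35 were lower in replicate 10. The largest gaps among named genes were in Nr4a3 and Egr1, where the pair differed by more than the level of Sgk1 or Fosl2 changed.

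Cytosolic chaperones rose in part. Of 33 tested genes of the heat shock response, which fold damaged proteins under HSF1, 5 rose, 1 fell and 27 did not pass. The median was 0.10, and 28 had a positive difference. Over all tested genes 1.38% rose and the median was 0.0026. Hspa1b, an inducible HSP70 gene, had 3.52 and 3.77 in untreated hearts, 5.57 in dabigatran replicate 10 and 4.44 in replicate 12 (1.36 ± 0.28, limma adjusted p = 0.0376). Its paralog Hspa1a, nearly identical in sequence so that reads may be split between them, did not pass (1.57, limma adjusted p = 0.0708). Dnajb1, an HSP40 partner, had 4.47 and 4.43, then 5.71 and 5.16 (0.98 ± 0.15, limma adjusted p = 0.01). Hspb7, a small heat shock protein of heart muscle, fell from 11.99 and 11.78 to 11.47 and 11.59 (-0.35 ± 0.07, limma adjusted p = 0.0369). None of the 6 kept its call in every leave-one-out fit, and with a robust prior none of the 5 risers passed (adjusted p from 0.0647 for Hsph1 to 0.377 for Hspa1b). Hspa1b did not pass without dabigatran replicate 10 or untreated replicate 8 or 9 (adjusted p from 0.0895 to 0.204). Dnajb1 did not pass without untreated replicate 8 or 9 (adjusted p from 0.0514 to 0.0614). Hspb7 did not pass without dabigatran replicate 10 or rivaroxaban replicate 14 or 15 or untreated replicate 8 (adjusted p from 0.0698 to 0.198).

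Endoplasmic reticulum chaperones were lower where they changed. In the unfolded protein response list of 30, none rose and 2 fell: Hspa5 (BiP, the main lumenal chaperone) from 9.72 and 9.63 to 9.41 and 9.40, and Pdia6, a disulfide isomerase, from 6.99 and 6.97 to 6.68 and 6.69 (limma adjusted p = 0.0231 and 0.0195). In the 28 oxidative stress genes 3 rose: Mt2 and Mt1, zinc-binding metallothioneins, by 1.08 ± 0.17 and 0.55 ± 0.09, and Nfe2l2, which encodes NRF2, by 0.33 ± 0.07 (limma adjusted p = 0.0115, 0.0154 and 0.0376). Mt2 and Mt1 lie 5.51 kb apart on chromosome 8. NRF2 targets Nqo1, Hmox1 and Gclm did not pass, with differences of -0.12, 0.27 and 0.29. Hspa5 did not pass without dabigatran replicate 10 or 12 or rivaroxaban replicate 14 or 15 or untreated replicate 8 (adjusted p from 0.0546 to 0.136). Pdia6, Mt1 and Nfe2l2 did not pass without dabigatran replicate 10 or untreated replicate 8 or 9 (adjusted p from 0.0501 to 0.209). Mt2 did not pass without untreated replicate 8 (adjusted p = 0.092).

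Few metabolic genes changed, where 1.88% of all tested genes passed. Irs2, an insulin receptor adaptor, rose by 1.44 ± 0.23 from 0.80 and 1.27 to 2.78 and 2.18 (limma adjusted p = 0.0114), and was the only one of 32 insulin and glucose uptake genes to pass. It lost its call without dabigatran replicate 10 (adjusted p = 0.0811) and without untreated replicate 8 (0.0789). The muscle glucose transporter Slc2a4 differed by -0.03.

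Of 23 FoxO factors and targets 4 rose (Bcl6, Irs2, Klhl24 and Fbxo30) and none fell, with a median of 0.18. The share that rose over all tested genes was 1.38%. Bcl6, a zinc finger repressor, had 4.63 and 4.30, then 5.22 and 5.58 (0.94 ± 0.14, limma adjusted p = 0.00848), while Foxo1, Foxo3 and Foxo4 did not pass. With a robust prior Bcl6 had an adjusted p of 0.0928. Of 36 PPAR targets and fatty acid genes, Plin4, a lipid droplet coat, and Ppara rose by 0.63 and 0.44 (limma adjusted p = 0.0143 and 0.0363) and none fell. None of 35 complex I genes, 46 genes of complexes II to V and cytochrome c, 72 mitochondrial ribosomal and 37 proteasome genes passed. The medians of these 4 lists lay between -0.01 and 0.02. Of 71 cytosolic ribosomal protein genes 68 had a negative difference, but small: the median was -0.06, and Rpl3 alone fell (-0.31 ± 0.05, limma adjusted p = 0.0115). In dabigatran replicate 12 all but 3 of the 71 lay below both untreated libraries, against 33 in replicate 10. The shares over all tested genes were 34.6% and 34.7%. Plin4 did not pass without dabigatran replicate 10 or untreated replicate 9 (adjusted p from 0.0717 to 0.0801). Ppara did not pass without dabigatran replicate 10 or untreated replicate 8 or 9 (adjusted p from 0.103 to 0.195). Rpl3 did not pass without untreated replicate 8 or 9 (adjusted p from 0.0546 to 0.0551).

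Ion channel genes changed in both directions. Kcna5, the Kv1.5 potassium channel that shortens the action potential, rose from 4.96 and 4.90 to 5.86 and 5.74 (0.87 ± 0.07, limma adjusted p = 0.000125). Kcnj2, the inward rectifier that sets the resting potential, fell from 5.95 and 5.76 to 5.33 and 5.39 (-0.49 ± 0.07, limma adjusted p = 0.01). Of 26 potassium channel genes 2 rose and 2 fell, the others being Kcnv2 (0.60) and Kcnq1 (-0.30). Kcna5 and the sodium channel beta subunit Scn4b (0.72 ± 0.10, limma adjusted p = 0.00553) kept their calls in every leave-one-out fit. Kcnj2 did not pass without dabigatran replicate 10 or untreated replicate 8 (adjusted p from 0.06 to 0.0711). Kcnv2 did not pass without dabigatran replicate 10 or untreated replicate 8 or 9 (adjusted p from 0.122 to 0.241). Kcnq1 did not pass without dabigatran replicate 10 or 12 or rivaroxaban replicate 14 or 15 or untreated replicate 8 or 9 (adjusted p from 0.0635 to 0.185).

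Rrad (chr8:104628070-104631327), a small GTPase that inhibits L-type calcium channels, fell from 8.59 and 8.29 to 7.39 and 7.63 (-0.94 ± 0.14, limma adjusted p = 0.01) and alone changed among 27 calcium channel and handling genes. Akap5, an anchor for protein kinase A near the channel, fell from 3.35 and 3.48 to 1.84 and 2.55 (-1.23 ± 0.22, limma adjusted p = 0.0194). The alpha-1A adrenoceptor gene Adra1a rose by 0.54 ± 0.12 (limma adjusted p = 0.0411). Rrad did not pass with a robust prior (adjusted p = 0.233). Irx3, a factor of the ventricular conduction system, fell by 0.51 ± 0.08, and Cntn2, a Purkinje cell adhesion gene, rose by 1.56 ± 0.26 (limma adjusted p = 0.0115 and 0.0144). Rrad, Irx3 and Cntn2 did not pass without dabigatran replicate 10 or untreated replicate 8 (adjusted p from 0.0588 to 0.0816). Akap5 did not pass without dabigatran replicate 10 or untreated replicate 8 or 9 (adjusted p from 0.0803 to 0.092). Adra1a did not pass without dabigatran replicate 10 or rivaroxaban replicate 14 or 15 or untreated replicate 8 or 9 (adjusted p from 0.0546 to 0.259).

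None of 26 sarcomere and ventricular muscle genes passed, and their differences lay between -0.12 and 0.14. None of 14 fetal and stress genes passed either.

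In the endothelial identity list, the genes that passed all rose. Of its 31 tested genes 6 rose (S1pr1, Gpihbp1, Rgcc, Aqp1, Flt1 and Eng), none fell and 25 did not pass. Over all tested genes 1.38% rose. S1pr1, the sphingosine phosphate receptor that keeps vessels sealed, had 6.17 and 6.09 untreated and 6.94 and 7.00 treated (0.84 ± 0.06, limma adjusted p = 0.000125). Gpihbp1, which carries lipoprotein lipase across capillaries, rose by 0.44 ± 0.06 (limma adjusted p = 0.00465). Both kept their calls. The general endothelial genes Pecam1, Cdh5 and Kdr differed by 0.06, 0.02 and -0.07, and none passed. Rgcc did not pass without dabigatran replicate 10 or untreated replicate 8 or 9 (adjusted p from 0.099 to 0.128). Aqp1 did not pass without dabigatran replicate 10 or 12 or rivaroxaban replicate 14 or 15 or untreated replicate 8 (adjusted p from 0.0509 to 0.18). Flt1 did not pass without dabigatran replicate 10 or 12 or untreated replicate 8 or 9 (adjusted p from 0.0583 to 0.188).

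In BMP signalling 3 of 20 genes rose, where 1.38% of all tested genes did. They were the ID genes Id1 and Id3, which block differentiation, by 0.48 and 0.41 and the inhibitor Smad7 by 0.56 (limma adjusted p = 0.00282, 0.0228 and 0.00725). Id1 had 5.39 and 5.43 against 5.90 and 5.89. Of 30 angiogenic, apelin and Notch genes Hey1 rose, and Aplnr, the apelin receptor, and Ndnf fell. Aplnr had 6.40 and 6.37 in untreated hearts and 5.43 and 5.74 in treated ones (-0.80 ± 0.17, limma adjusted p = 0.0401). The YAP targets Ctgf and Amotl2 rose by 0.45 and 0.38 (limma adjusted p = 0.041 and 0.0392). Id3, Hey1 and Aplnr did not pass without dabigatran replicate 10 or untreated replicate 8 or 9 (adjusted p from 0.0718 to 0.23). Smad7 did not pass without untreated replicate 8 (adjusted p = 0.0546). Ndnf did not pass without dabigatran replicate 10 or 12 or rivaroxaban replicate 14 or 15 or untreated replicate 8 or 9 (adjusted p from 0.0647 to 0.174). Ctgf and Amotl2 did not pass without dabigatran replicate 10 or 12 or rivaroxaban replicate 14 or 15 or untreated replicate 8 (adjusted p from 0.0571 to 0.215). None of 20 smooth muscle and pericyte genes passed.

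Thrombin's own receptors and the coagulation genes were not detectably changed. Of 32 listed genes 25 were tested and none passed, with a median of -0.04. F2r, the main thrombin receptor gene (PAR1), had 5.46 and 5.54 in untreated and 5.53 and 5.63 in treated hearts, a difference of 0.08 with a 95% interval from -0.09 to 0.25. Thrombomodulin, Thbd, differed by 0.15 (from -0.01 to 0.31), and tissue factor, F3, by -0.16 (from -0.36 to 0.03). The lowest p was that of Plau, urokinase, with 3.32 and 3.20 against 2.67 and 2.93 (limma adjusted p = 0.139). Thrombospondin 1, Thbs1, differed by 0.51 (limma adjusted p = 0.169).

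In each immune gene list at most 2 genes passed, and 1.88% of all tested genes did. Csf1, which keeps macrophages alive, fell from 7.18 and 6.72 to 6.25 and 6.23 (-0.71 ± 0.12, limma adjusted p = 0.0183). It was the only one of 17 tested cytokine and chemokine genes to pass, and with a robust prior its adjusted p was 0.184. None of 29 macrophage and monocyte genes passed, with a median of 0.01: Csf1r, the receptor for CSF1, differed by 0.09, and the chemokine receptors Cx3cr1 and Ccr2 had lower values (-0.73 and -0.61, limma adjusted p = 0.232 and 0.217). Of 28 NF-kB genes Nfkbia, the inhibitor, and Tnfaip2 rose by 0.56 and 0.41. Of 16 TNF receptor family genes 2 rose. Tnfrsf25, a death receptor of lymphocytes, rose by 1.23 ± 0.18 and Fas by 0.59 ± 0.12 (limma adjusted p = 0.00848 and 0.0376). Clu alone passed among 22 complement genes, with a rise of 0.30 ± 0.06 (limma adjusted p = 0.025). Fas and Clu did not keep their calls in every leave-one-out fit. None of 24 IL-6 and STAT3 genes, 12 MHC class II genes, 5 neutrophil or 8 lymphocyte genes passed, and the interferon-stimulated gene Oas2 was the 1 riser among 27. Csf1 did not pass without dabigatran replicate 10 or untreated replicate 8 (adjusted p from 0.0692 to 0.0803). Nfkbia did not pass without dabigatran replicate 10 or untreated replicate 8 or 9 (adjusted p from 0.0546 to 0.0912). Tnfaip2 did not pass without dabigatran replicate 12 or rivaroxaban replicate 14 or 15 or untreated replicate 8 or 9 (adjusted p from 0.0655 to 0.139). Tnfrsf25 did not pass without dabigatran replicate 10 (adjusted p = 0.0512). Oas2 did not pass without dabigatran replicate 10 or 12 or untreated replicate 8 (adjusted p from 0.0583 to 0.139).

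Mesothelial surface genes fell while Wt1 rose. Of 17 tested markers of mesothelium and epicardium 3 fell (Upk3b, Msln and Gpm6a), 1 rose (Wt1) and 13 did not pass. The median of -0.57 was the lowest of any list. Msln (chr17:25748613-25754378), mesothelin, had 4.13 and 4.29 untreated and 3.38 and 3.56 treated (-0.74 ± 0.13, limma adjusted p = 0.0163). Upk3b, an uroplakin of mesothelium, had 4.99 and 4.86, then 4.08 and 4.25 (-0.76 ± 0.12, limma adjusted p = 0.0115). Wt1, an epicardial transcription factor also made by vessels after injury, had 3.24 and 3.28, then 3.72 and 3.80 (0.51 ± 0.10, limma adjusted p = 0.0274). In bulk tissue, fewer cells of a type and less RNA per cell cannot be told apart. Upk3b did not pass without dabigatran replicate 10 or untreated replicate 8 (adjusted p from 0.0792 to 0.0939). Msln did not pass without dabigatran replicate 10 or untreated replicate 8 or 9 (adjusted p from 0.0658 to 0.0969). Gpm6a did not pass without dabigatran replicate 12 or rivaroxaban replicate 14 or 15 or untreated replicate 8 or 9 (adjusted p from 0.053 to 0.169). Wt1 did not pass without dabigatran replicate 10 or 12 or untreated replicate 8 or 9 (adjusted p from 0.0718 to 0.136).

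The summed level of the 18 markers with values, tested or not, was 8.89 and 8.85 in untreated and 8.71 and 8.64 in treated hearts. Krt19, a keratin of mesothelium, had 2.79 and 2.18 against 1.53 and 1.76 (limma adjusted p = 0.0821). None of 32 collagen genes or of 32 cell cycle genes passed. Their medians of -0.08 and -0.20 moved with single libraries. They were 0.01 and -0.003 without dabigatran replicate 10, -0.03 and -0.05 without untreated replicate 8, and -0.15 and -0.38 without untreated replicate 9. In dabigatran replicate 10, 24 of 32 collagen genes lay below both untreated libraries, and in replicate 12 10 did, against 34.7% and 34.6% of all tested genes. Of 35 fibroblast and matrix genes Fmod, a collagen-binding proteoglycan, fell by 0.76 ± 0.12 and Ctgf rose. The part of how the tissue was sampled in these results was not tested. Fmod did not pass without dabigatran replicate 10 or untreated replicate 8 or 9 (adjusted p from 0.0519 to 0.0823).

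Few genes of blood or nerve passed. Of 11 red cell and platelet genes Slc4a1, the red cell anion exchanger, rose by 2.12 ± 0.47 from -0.20 and -1.85 to 1.38 and 0.81 (limma adjusted p = 0.0487). The transferrin receptor Tfrc was lower by 1.29 but did not pass (6.65 and 7.16 against 5.78 and 5.44, limma adjusted p = 0.0532). Globin genes were not analysed here. Slc4a1 did not pass without dabigatran replicate 10 or 12 or rivaroxaban replicate 14 or 15 or untreated replicate 9 (adjusted p from 0.0661 to 0.275). None of 9 Schwann and neuron genes or 7 skeletal muscle genes passed.

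**Figure D3:**
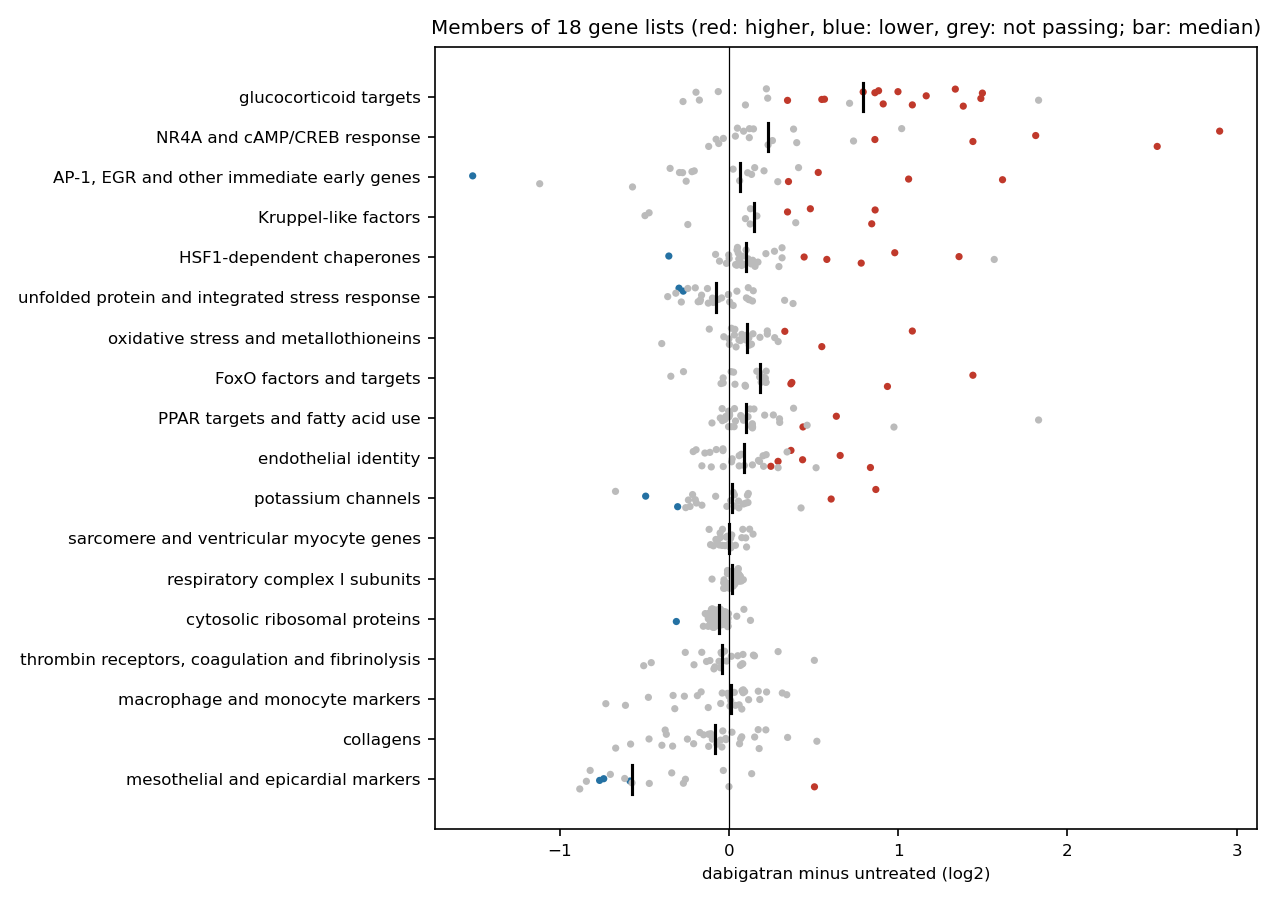
Difference between dabigatran and untreated hearts (log2) of each tested member of 18 gene lists, red where it passed as higher, blue where it passed as lower and grey where it did not; bars mark medians. Glucocorticoid targets lie farthest to the right with a median of 0.79 and mesothelial markers farthest to the left with -0.57.

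Some structural RNAs rose with dabigatran. Of 610 tested genes not typed as protein-coding, 4 of them immunoglobulin constant-region genes, 10 passed (1.64%, near the 1.88% of all genes), and all 10 rose. The set below was put together after its values were seen. A related gene, Rn7s6, did not pass (1.12, limma adjusted p = 0.143). Rn7s1 and Rn7s2, copies of the 7SL RNA of the signal recognition particle that share their reads, both had 3.30 and 3.30 (3.31 for Rn7s2 in replicate 9) in untreated hearts and 4.82 and 4.33 with dabigatran (limma adjusted p = 0.0154 and 0.0155). Gm42418 (chr17:39846958-39848788), a transcript at a ribosomal RNA repeat on chromosome 17, had 8.28 and 8.58, then 9.03 and 9.00 (0.59 ± 0.09, limma adjusted p = 0.011). Gm26917, its neighbour, rose by 0.78 ± 0.12 (limma adjusted p = 0.01). Background to these values is that 7SL RNA carries no poly-A tail, while the labels describe poly-A purification. Rn7s1 did not pass without dabigatran replicate 10 or untreated replicate 8 or 9 (adjusted p = 0.094, 0.0917 and 0.0655), nor with a robust prior (0.218).

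Several protein-coding genes were also highest in dabigatran replicate 10. Lars2, Camk1d, Jarid2, Arhgap21 and Kcnip1 rose by 0.75, 0.91, 0.85, 0.65 and 0.91. Camk1d, Jarid2, Arhgap21 and Kcnip1 shared the order, from low to high, of replicates 8, 9, 14, 15, 12 and 10. Lars2 differed only in that rivaroxaban replicate 14 lay below untreated replicate 9. Camk1d, a calcium-dependent kinase, had 5.22 and 5.73 in untreated hearts and 6.71 and 6.06 with dabigatran, with rivaroxaban between at 5.79 and 6.02. The 15 genes plotted below were put together after their values were seen, so their being highest in dabigatran replicate 10 was no separate result. They include Rn7s6, Cdk8 and Zc3h7a, which did not pass (limma adjusted p = 0.143, 0.0821 and 0.0568). The summed share of all 15 was 0.115% and 0.144% of CPM in untreated, 0.251% and 0.185% in dabigatran, and 0.150% and 0.178% in rivaroxaban libraries. The long nuclear RNAs Malat1, Neat1 and Meg3 differed by 0.08, 0.03 and 0.04, and none passed. The part of RNA selection or quality in the other rises was not tested.

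**Figure D4:**
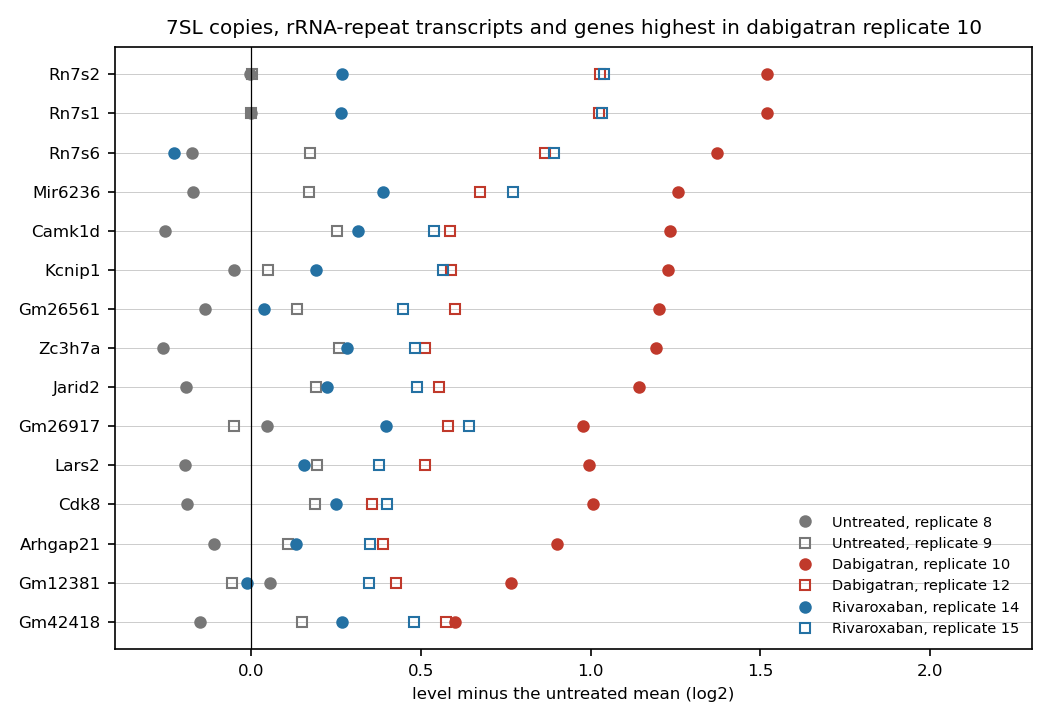
Level minus the untreated mean (log2) of 15 structural RNAs, ribosomal repeat transcripts and coding genes, in all 6 libraries (grey untreated, red dabigatran, blue rivaroxaban). The genes were chosen after their values were seen, and dabigatran replicate 10 is the farthest right in each row, at 1.52 for Rn7s1.

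Short genes were common among those that passed. Protein-coding genes that rose spanned a median of 17.6 kb with 6 exons, and those that fell 11.0 kb with 5 exons, against 26.1 kb and 8 exons for all tested coding genes. Gene spans under 10 kb made up 29.0% of the higher, 43.1% of the lower and 21.8% of all tested. The share that passed also grew with level, from 0.662% below 2 to 2.88% at 8 and above. The reason was not tested. Just inside the threshold lay Slc4a1, Chst4, Ctla2b, Man2a1 and Zfp592 (adjusted p = 0.0487), and just outside Hes1, Gypc, Lrrc58, Nr6a1 and Fam117b (0.051).

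Against rivaroxaban, dabigatran hearts differed in few genes. In the same limma fit 10 genes passed, 0.077% of those tested, all higher with dabigatran, and 1094 had an unadjusted p under 0.05. The doses differ (10 and 3 mg/kg), so the values below set 1 dose of each side by side. Of the 244 genes changed against untreated hearts, 2 also differed from rivaroxaban, Zfp970 among them. Zfp970, a zinc finger gene, had 6.24 and 6.00 with dabigatran, 5.48 and 5.59 with rivaroxaban and 5.70 and 5.74 in untreated hearts (0.58 between the drugs, limma adjusted p = 0.0417). Zfp970 and its near-identical relative Zfp972 may share reads.

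The other 8 did not pass against untreated hearts. Cyp26b1 (chr6:84571414-84593908), which breaks down retinoic acid, was the largest, with 3.76 and 3.73 in dabigatran, 1.10 and 0.62 in rivaroxaban and 2.57 and 4.32 in untreated hearts (2.89 between the drugs, limma adjusted p = 0.0417). Abi1, a subunit of the WAVE actin complex, had 7.23 and 7.11, 6.55 and 6.60, and 7.18 and 7.09 in these groups (0.60, limma adjusted p = 0.0147). Bmp6, Fah, Scn4a, Cxcl14, Ccdc171 and Zfp972 were the others. None of the 10 passed without dabigatran replicate 10 or without either rivaroxaban replicate, where the lowest adjusted p were 0.09, 0.209 and 0.11.

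Intervals between the drugs were wide for the NR4A genes. For Nr4a3 dabigatran exceeded rivaroxaban by 1.35 (from 0.66 to 2.05, limma adjusted p = 0.223) and for Nr4a1 by 0.93 (from 0.34 to 1.52, limma adjusted p = 0.336). For Sgk1 the difference was -0.01 (from -0.19 to 0.16), for Tob2 -0.02 (from -0.21 to 0.17) and for Sik1 0.09 (from -0.33 to 0.50), none of which passed. Zbtb16 had 6.30 and 6.83 with rivaroxaban, against 6.49 and 5.37 with dabigatran (-0.64, limma adjusted p = 0.564).

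**Figure D5:**
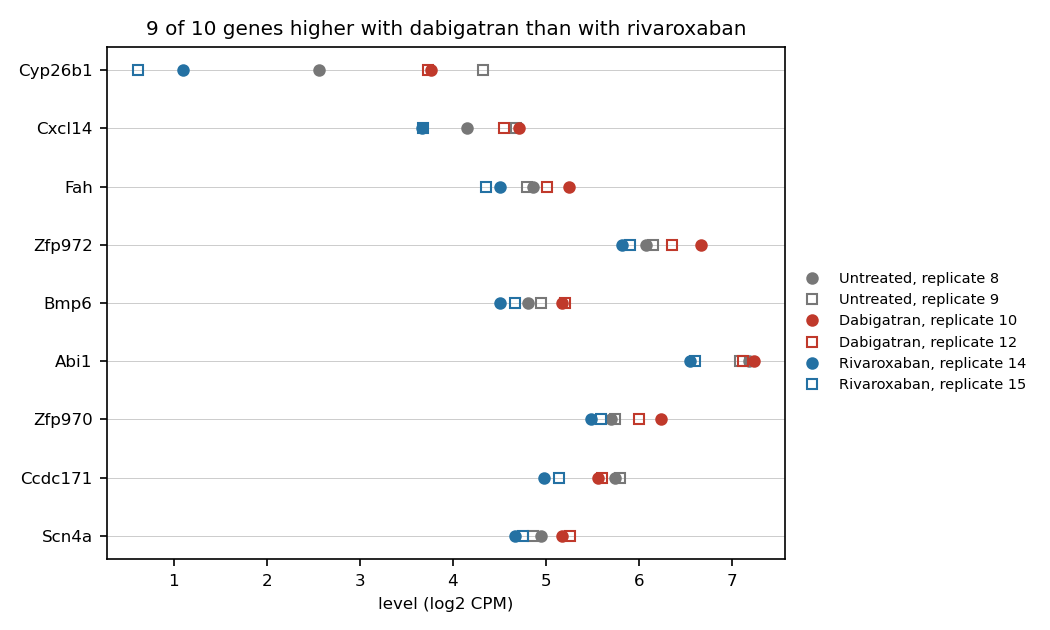
Level (log2 CPM) of 9 of the 10 genes that passed between dabigatran (red) and rivaroxaban (blue), with untreated libraries in grey. The dabigatran libraries lie to the right of both rivaroxaban libraries in each row, by the most for Cyp26b1 (2.89).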

How the data were processed

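RNA of mouse heart was sequenced in 6 libraries, and the deposited table holds log2 CPM values that the authors scaled between libraries by TMM, as the table is named. Per the submitters' processing notes the tools were bcl2fastq, FastQC, Trim Galore, STAR and edgeR, with the mm10 build. The counter and annotation were not given in the sources used here, nor were tool versions. The values gave back whole reads for all genes checked, within 0.02 reads, which supplied the depths.

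Genes with a mean level of at least 0 over the 6 libraries were fitted with limma 3.58.1 in R 4.3.3, with all 3 groups sharing 1 trended estimate of spread (3 residual and 7.75 prior degrees of freedom), and p-values were adjusted by the Benjamini-Hochberg method over all 12981 genes. Scripts used Python 3.11.15. A limma fit of the same form was tested on simulated reads. Symbols were placed with GENCODE M21 on GRCm38, and promoters were taken from RefSeq.

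Members, the 56 gene lists and tests were chosen with earlier results of these data known. Named genes were the 15 largest rises and the 15 largest falls among called genes with an ordinary symbol (no Gm number, Rik or clone name) and a mean level of at least 1 in either group, the 8 rises and 8 falls of lowest p among genes with a level of at least 6, up to 5 called members of each list in each direction, coagulation genes, the 10 genes of lowest p between the drugs, and 5 genes on each side of the threshold; other names were chosen after their values were seen. Alternatives were another added count, centring or scaling, other filters, no trend, a robust prior, only the 4 libraries, voom on the recovered reads, and leaving out each library. Some genes that passed are not reported here.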

Additional observations from a re-analysis of the deposited data

How the results depend on the processing

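No paired analysis was possible because the groups share no replicate numbers. Against untreated hearts, 244 genes passed (179 higher, 65 lower). With no trend in the spread 0 passed in either direction (lowest limma adjusted p = 0.113, 1728 below 0.05 unadjusted), and with quantile normalization 154 did (104 higher). Leaving out 1 library gave 73 to 270 genes in all, 63 to 195 higher and 10 to 75 lower. The higher share was 73.4%, against 68.8% with median centring, 67.5% with quantile normalization and 65.7% with voom. Between the drugs, 10 genes passed. No trend gave 0 (lowest limma adjusted p = 0.453, 984 below 0.05 unadjusted), only the 4 compared libraries gave 6, and quantile normalization, the stricter filter and voom gave 1 each. Leaving out 1 library gave 0 to 20. The cause was not tested. Of 105 named genes that passed, 28 lost the call with a robust prior, 32 with quantile normalization, 23 with only the 4 compared libraries and 16 with voom, and none changed direction in any of these fits. F2rl1, which did not pass, had a difference of -0.04, which was 0.22 without untreated replicate 8 and -0.31 without untreated replicate 9. With 2 libraries a group, small changes in genes of few reads were not detectable.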
